A study of Rattus norvegicus with 12 samples.

Results

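Transcripts of 9 complement genes were examined in the renal cortex of obese Zucker fatty rats, of other Zucker fatty rats given a sodium–glucose cotransporter 2 inhibitor (SGLT2i), and of lean controls. The genes were chosen by name: C1qa, C1qb, C1qc, C1r and C1s encode the subunits of C1, Serping1 encodes its inhibitor, and C3, Cfb and Cfi encode the central component, an activator and a regulator of the step that follows. All 9 were among the 13151 genes of the deposited table, and all 9 passed the filter on low values. Male rats 32 weeks old were used in every group. Zucker lean (ZL) rats were the lean controls, and Zucker fatty (ZF) rats, which lack a functional leptin receptor, were the obese model. ZF-SGLT2i rats were ZF rats given canagliflozin, an SGLT2 inhibitor, at 10 mg/kg/day in their food, starting when they were 24 weeks old and continuing for 8 weeks, with food intake matched to nontreated ZF rats. Each group held 4 rats, which keep their deposited numbers: ZL rats 1 to 4, ZF rats 2 to 5, and treated rats 2, 3, 4 and 6.

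The 12 libraries were from whole renal cortex, so a value is an average over tubular, glomerular, vascular and interstitial cells, and fewer cells of a type cannot be told apart from less RNA per cell. ZL rats came from an experiment with kidney biopsies at 16 and 24 weeks of age, and ZF-SGLT2i rats from another experiment for which no biopsy is described. The paper's text calls the sequenced nontreated obese rats ZF. A figure caption also calls them ZF-NT, the name of an arm of the experiment with the treated rats. By that label biopsy differs only in the comparisons with ZL rats, where its effect cannot be told apart from the group. Reads on genes ranged from 8886901 to 12210257 in ZL, from 8824980 to 11191377 in ZF and from 8914666 to 10293049 in ZF-SGLT2i rats. Values are normalized read counts (CPM, counts scaled to library size), and transcript lengths were not used, so a value may be compared between rats for a gene but not, as a level, between genes; where a gene is said to hold the most reads of a list, its transcript length counts in that. Markers of the cortex were present, with the proximal tubule gene Lrp2 at a mean of 8337 CPM over the 12 rats and the podocyte gene Podxl at 936 CPM.

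The complement system is a cascade of plasma and cell-derived proteins that marks targets for removal. In the classical pathway the recognition protein C1q activates the proteases C1r and C1s, which cleave C4 and C2 to form an enzyme that cleaves C3; the alternative pathway amplifies the cleavage of C3 through factor B. Serping1 inactivates C1r and C1s, and factor I with its cofactors degrades the active fragments of C3 and C4. The liver makes most of the circulating proteins, macrophages are a main source of C1q, and kidney cells can make C3 and C4 themselves.

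None of the 9 genes passed the test between ZF and ZL rats. C1r was lower in treated than in nontreated ZF rats, and C1r and Serping1 were lower in treated ZF than in lean rats. In ZF against ZL, 0 of 9 genes passed limma's test at an adjusted p under 0.05, where 18.8% of all 11633 genes tested passed. At an unadjusted p under 0.05 the count was also 0 with limma, where 33.1% of all genes were below that value, and it was 0 with edgeR and 1 with DESeq2. Of the 9 estimates 8 were above 0, and their median log2 fold change was 0.25 where that of all genes was -0.01. In ZF-SGLT2i against ZF 1 gene passed and was lower, where 3.15% of all genes passed, 1.39% as higher and 1.75% as lower. An unadjusted p under 0.05 was found for 2 of the 9 genes and for 17.2% of all genes. All 9 estimates were below 0, with a median of -0.34 against 0.01 for all genes. For C1qb and C3 that direction depended on the log scale, since their mean values were higher in treated than in nontreated ZF rats (10.21 against 10.15 CPM for C1qb and 34.9 against 33.5 CPM for C3) and edgeR and DESeq2 gave estimates above 0. In ZF-SGLT2i against ZL 2 genes were lower, where 27.4% of all genes passed, 12.4% as higher and 15.0% as lower, and 3 genes had an unadjusted p under 0.05, as did 39.3% of all genes, so a call in this comparison was common among genes of any kind. The 3 comparisons share groups, and their estimates are therefore not independent.

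**Figure D1:**
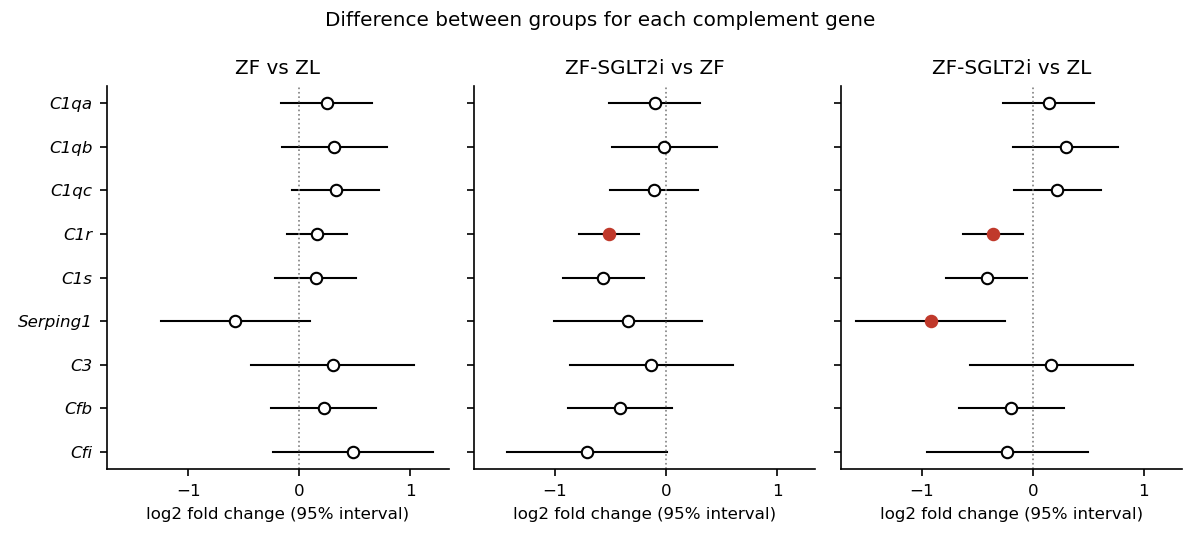
Log2 fold change of each of the 9 complement genes (points, with 95% limma intervals as lines) in the 3 comparisons, 4 rats a group; filled red points passed at an adjusted p under 0.05. C1r and Serping1 hold the only red points, C1r at -0.51 in ZF-SGLT2i against ZF and at -0.36 in ZF-SGLT2i against ZL, and Serping1 at -0.92 in ZF-SGLT2i against ZL.

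The proteases C1r and C1s were the members with the lowest adjusted p-values in the comparison of treated with nontreated obese rats. C1r measured 104, 101, 79.1 and 100.4 CPM in ZL rats 1 to 4, with a mean of 96.2 ± 11.5 (SD, n = 4). In ZF rats 2 to 5 it was 114, 103, 135 and 81.2 CPM, a mean of 108 ± 22.4 (SD, n = 4). In ZF-SGLT2i rats 2, 3, 4 and 6 it was 75.3, 72.1, 71.1 and 79.4 CPM, a mean of 74.5 ± 3.72 (SD, n = 4). Every treated rat was below every ZF rat, the nearest being treated rat 6 at 79.4 and ZF rat 5 at 81.2 CPM, and treated rat 6 was also just above ZL rat 3. Across all genes 11.2% had groups that did not overlap in this comparison, 5.54% with the treated rats higher and 5.63% with them lower. The log2 fold change of C1r in ZF-SGLT2i against ZF was -0.51 (SE 0.13, 95% interval -0.79 to -0.24, limma adjusted p = 0.042), a level 0.700 times that of ZF rats, and the exact permutation p was 0.0286, the smallest that 4 rats against 4 allow. Against ZL it was -0.36 (SE 0.13, 95% interval -0.63 to -0.09, limma adjusted p = 0.049; exact permutation p = 0.0571). Both calls were close to the threshold: over the 22 alternatives the adjusted p ran from 0.0030 to 0.115 in ZF-SGLT2i against ZF, where 8 alternatives, each leaving out 1 rat, lost the call, and 12 lost the call against ZL. ZF and ZL rats overlapped, with a log2 fold change of 0.16 (95% interval -0.12 to 0.43, limma adjusted p = 0.42).

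C1s, the protease that C1r activates, had a similar profile over the rats. C1s was 74.8, 62.7, 45.2 and 64.6 CPM in ZL rats (61.8 ± 12.3, SD, n = 4) and 80.8, 69.0, 82.1 and 45.6 CPM in ZF rats (69.4 ± 16.9, SD, n = 4). The ZF-SGLT2i rats were within a narrow range, at 46.7, 44.3, 43.1 and 47.8 CPM (45.5 ± 2.16, SD, n = 4). ZF rat 5 at 45.6 CPM lay within the treated range, and the other ZF rats lay above it. The log2 fold change of C1s in ZF-SGLT2i against ZF was -0.56 (SE 0.17, 95% interval -0.93 to -0.20), which did not pass (limma adjusted p = 0.095; exact permutation p = 0.0857). It passed in 4 of 22 alternatives, namely without ZF rat 5 (-0.75, limma adjusted p = 0.0072), with a replicate block (-0.77, limma adjusted p = 0.015), with array weights (-0.59, limma adjusted p = 0.025) and with DESeq2 on recovered reads (-0.62, adjusted p = 0.015). The block also sets ZF rat 5 aside, because rat numbers 1, 5 and 6 each occur in only 1 group. Its estimates rest on rats 2, 3 and 4 of each group. Against ZL the estimate was -0.41 (SE 0.17, 95% interval -0.78 to -0.05, limma adjusted p = 0.086; exact permutation p = 0.0857), and it passed in 5 of 22 alternatives. ZF rats were at 0.15 relative to lean rats (95% interval -0.22 to 0.51, limma adjusted p = 0.59). With a replicate block that estimate was 0.43 and passed (limma adjusted p = 0.040). C1r and C1s are neighbours on chromosome 4, and their values had a Pearson correlation of 0.97 over the 12 rats, or 0.94 for deviations from the group means, in libraries that share depth and scaling.

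**Figure D2:**
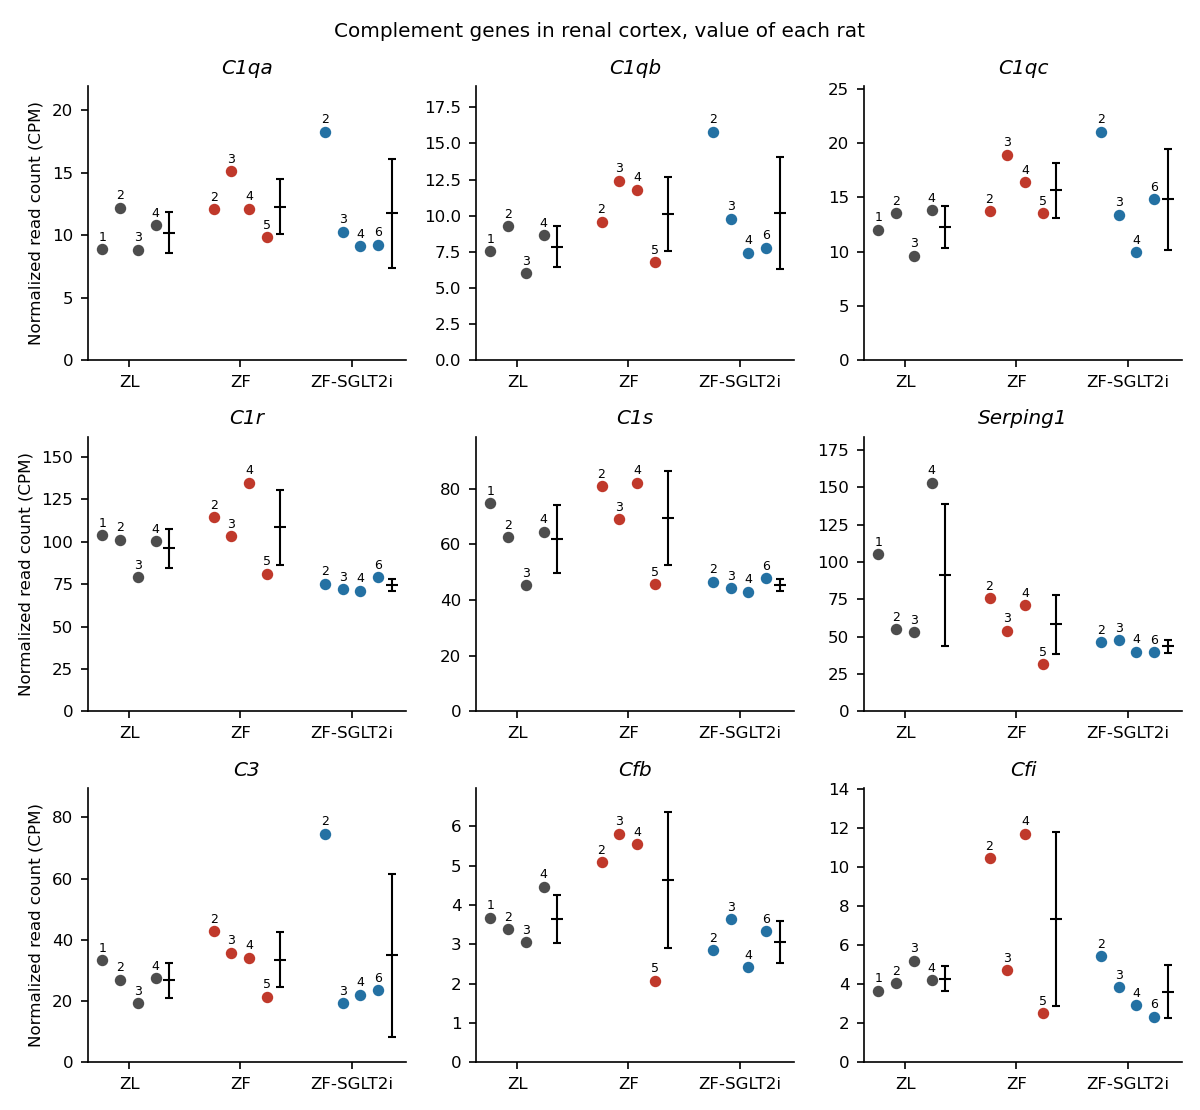
Normalized read count (CPM, each axis from 0) of the 9 complement genes in each rat (points with the rat number), with the mean ± SD of each group of 4 as bars. C1r and C1s are lowest and tightest in ZF-SGLT2i (71.1 to 79.4 and 43.1 to 47.8 CPM), rat 2 of that group stands apart in C1qa (18.3 CPM) and C3 (74.6 CPM), and ZL rats 1 and 4 hold the highest Serping1 values (105 and 153 CPM).

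Serping1, the inhibitor of both proteases, spread widely in lean rats. Its values were 105, 55.0, 53.2 and 153 CPM in ZL rats 1 to 4, 75.7, 54.1, 71.2 and 31.8 CPM in ZF rats, and 46.5, 47.8, 39.9 and 39.8 CPM in ZF-SGLT2i rats. The means were 91.6 ± 47.5, 58.2 ± 19.9 and 43.5 ± 4.21 CPM (SD, n = 4 each). All treated rats were below all ZL rats. Groups that did not overlap were found for 28.0% of all genes in that comparison, 12.9% with the treated rats higher and 15.1% with them lower. ZF overlapped both groups. In ZF-SGLT2i against ZL the log2 fold change was -0.92 (SE 0.31, 95% interval -1.59 to -0.25, limma adjusted p = 0.042; exact permutation p = 0.0286). The call was lost in 8 of 22 alternatives, and without ZL rat 4 the change was -0.63 with an adjusted p of 0.110. ZF rats were at -0.58 relative to ZL (95% interval -1.25 to 0.09, limma adjusted p = 0.22) and treated rats at -0.34 relative to ZF (95% interval -1.01 to 0.33, limma adjusted p = 0.63). Lean rats 1 and 4 were also the highest of their group in 2 of 5 thick limb and distal tubule genes. These were Umod (3014 and 3985 CPM against 2190 and 2333) and Slc12a1 (904 and 1326 CPM against 709 and 811). In the others, Slc12a3, Kcnj1 and Calb1, lean rat 2 was the highest (2115, 613 and 1496 CPM) and lean rat 4 the lowest (1258, 515 and 704 CPM). The part of these genes in the Serping1 values was not tested. The same lean rats 1 and 4 were high in Mbl1, a mannose-binding lectin, as described for the other genes of the pathway.

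The 3 chains of C1q moved together from rat to rat and passed in no comparison. C1qa was 8.88, 12.2, 8.84 and 10.8 CPM in ZL rats, 12.1, 15.1, 12.1 and 9.84 CPM in ZF rats, and 18.3, 10.3, 9.16 and 9.25 CPM in ZF-SGLT2i rats. C1qb was 7.54, 9.28, 6.01 and 8.67 CPM in ZL, 9.59, 12.4, 11.8 and 6.78 CPM in ZF, and 15.8, 9.79, 7.45 and 7.80 CPM in ZF-SGLT2i rats. C1qc was 12.0, 13.5, 9.64 and 13.8 CPM in ZL, 13.7, 18.9, 16.4 and 13.6 CPM in ZF, and 21.0, 13.4, 9.96 and 14.8 CPM in ZF-SGLT2i rats. The groups overlapped for all 3 chains, and treated rat 2 had the highest value of the 12 rats in each. In ZF against ZL the log2 fold changes were 0.25 for C1qa, 0.31 for C1qb and 0.33 for C1qc, with limma adjusted p-values of 0.40, 0.35 and 0.23. For C1qc the 95% interval was -0.06 to 0.72, which includes 0. In ZF-SGLT2i against ZF the estimates were -0.10, -0.02 and -0.11, with 95% intervals between -0.51 and 0.45. The 3 genes lie side by side on chromosome 5, in the order C1qb, C1qc and C1qa, and rested on 53 to 221 reads a rat.

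C3, at which the pathways of activation meet, was set apart by 1 treated rat. It was 33.3, 27.0, 19.3 and 27.5 CPM in ZL rats (26.8 ± 5.75, SD, n = 4) and 42.8, 35.8, 34.2 and 21.4 CPM in ZF rats (33.5 ± 8.89, SD, n = 4). In ZF-SGLT2i rats it was 74.6, 19.4, 22.1 and 23.6 CPM, a mean of 34.9 ± 26.5 (SD, n = 4). Treated rat 2 was above every other rat, while the other treated rats lay within the range of the lean ones. No comparison passed: the log2 fold change was 0.30 in ZF against ZL (95% interval -0.43 to 1.03, limma adjusted p = 0.59) and -0.13 in ZF-SGLT2i against ZF (95% interval -0.87 to 0.60, limma adjusted p = 0.89). Without treated rat 2 the estimate against ZL turned from 0.17 to -0.27, and neither passed.

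Factor B and factor I rested on few reads. Cfb, whose product forms the C3-cleaving enzyme of the alternative pathway, was 3.68, 3.38, 3.06 and 4.47 CPM in ZL, 5.08, 5.81, 5.56 and 2.08 CPM in ZF, and 2.86, 3.63, 2.41 and 3.34 CPM in ZF-SGLT2i rats. ZF rats 2, 3 and 4 were above all the other rats, and ZF rat 5 was the lowest of the 12, at 19 reads. Cfi, whose product degrades the active C3 and C4 fragments, was 3.68, 4.07, 5.22 and 4.20 CPM in ZL, 10.5, 4.71, 11.7 and 2.51 CPM in ZF, and 5.43, 3.84, 2.92 and 2.34 CPM in ZF-SGLT2i rats. Only ZF rats 2 and 4 were above 6 CPM, and ZF overlapped both other groups. Against ZF, treated rats were at -0.41 for Cfb (95% interval -0.89 to 0.06, limma adjusted p = 0.37) and at -0.71 for Cfi (95% interval -1.43 to 0.01, limma adjusted p = 0.30). In ZF against ZL the estimates were 0.22 for Cfb and 0.48 for Cfi, with limma adjusted p-values of 0.54 and 0.35. In that comparison Cfb, but not Cfi, passed without ZF rat 5 (0.49, limma adjusted p = 0.041). Without ZF rat 5 both genes passed in ZF-SGLT2i against ZF, at -0.68 for Cfb (limma adjusted p = 0.018) and -1.07 for Cfi (limma adjusted p = 0.040).

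ZF rat 5 was the lowest of its group for all 9 genes, and ZL rat 3 was the lowest of its group for 8 of 9. These rats also had the smallest libraries of their groups, at 8824980 and 8886901 reads on genes. Among treated rats the smallest library, that of rat 6 (8914666 reads), was the lowest for 2 of 9 genes and the highest for 2, and rat 4 was the lowest for 6. The part of library size was not tested. Without ZF rat 5, 4 of the 9 genes were called lower in ZF-SGLT2i against ZF (C1r, C1s, Cfb and Cfi), and without any other single rat the count was 0 or 1. Leaving out ZF rat 5 also raised the number of all genes called lower from 204 to 314 and that of genes called higher from 162 to 256. ZF-SGLT2i rat 2 was the highest of its group for 5 genes and the highest of all 12 rats for C1qa, C1qb, C1qc and C3. The ratio of the highest to the lowest rat was 1.90 for C1r, 1.91 for C1s, 2.07 to 2.63 for the C1q chains, 2.80 for Cfb, 3.87 for C3, 4.81 for Serping1 and 5.00 for Cfi.

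**Figure D3:**
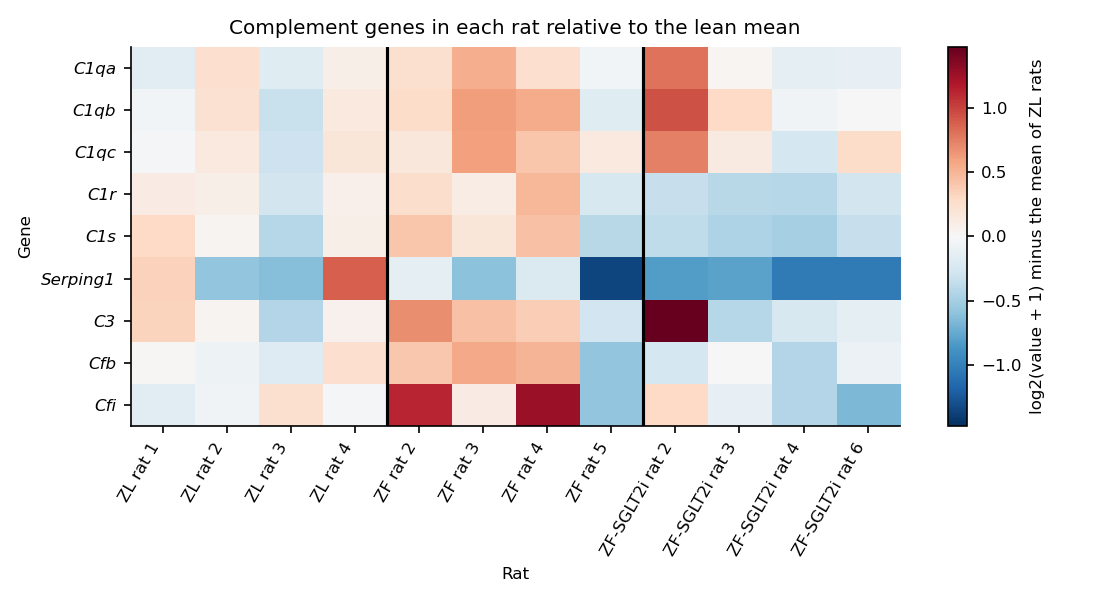
Each of the 9 complement genes (rows) in each of the 12 rats (columns, by group), as log2(value + 1) minus the mean of the 4 ZL rats; red is above and blue below that mean. The column of ZF rat 5 is the lowest of the ZF columns in all 9 rows, and that of ZF-SGLT2i rat 2 is highest in C1qa, C1qb, C1qc and C3.

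Macrophage markers were low or high in several of the rats that stood out for C1q: ZL rat 3 and ZF rat 5 were the lowest of their groups in both sums, and treated rat 2 the highest and treated rat 4 the lowest of theirs. Other rats differed in order: ZF rat 3 had the highest C1q sum of its group (46.5 CPM) but a macrophage sum below those of ZF rats 2 and 4, and ZL rat 2 was highest of its group in C1q (35.0 CPM) while ZL rat 1 was highest in macrophage genes (135.2 CPM). The 14 genes of the list, of which Csf1r held the most reads at 35.9 CPM and Cd163 and Ms4a7 held rats at 0, summed to 124 ± 17.9 CPM in lean, 162 ± 34.1 in ZF and 129 ± 37.8 in treated rats (SD, n = 4 each). The sum was 114.8 CPM in ZF rat 5 against 159.4 to 188.4 in the other ZF rats, and 184.1 CPM in treated rat 2 against 98.1 to 119.2 in the other treated rats. Of the 12 macrophage genes tested, 12 were above 0 in ZF against ZL and 1 passed (Cd14, 0.57, limma adjusted p = 0.017), and 12 were below 0 in ZF-SGLT2i against ZF with 0 passing, 4 of them at an unadjusted p under 0.05. Of all genes 8.19% were called higher in ZF against ZL, and 17.2% had an unadjusted p under 0.05 in ZF-SGLT2i against ZF. Adgre1, which encodes the macrophage surface protein F4/80, was 31.7 CPM in treated rat 2 against 6.94 to 10.8 CPM in the other treated rats. Over the 12 rats the genes most like C3 by Pearson's r were Adgre1 (0.94), Ncf1 (0.89), Dok3 (0.89), Map4k1 (0.88) and Cxcl13 (0.88), and treated rat 2 weighs heavily in these values. Those most like C1qa were C1qb (0.93), Fermt3 (0.88), Plk4 (0.87), C1qc (0.86) and Slamf9 (0.86). C1qa and C3 correlated at 0.82, while C1qa and C1s correlated at 0.23. The part of macrophage number in the C1q and C3 values was not tested.

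Fibroblast markers shared part of their order over the rats with C1r and C1s. The 8 genes, with Pdgfra holding the most reads at 129 CPM and Postn at 0 in some rats, summed to 589 ± 89.9 CPM in lean, 759 ± 163 in ZF and 456 ± 22.4 in treated rats (SD, n = 4 each). In single rats the sum was 627.9, 615.9, 456.3 and 655.3 CPM in ZL, 902.7, 674.0, 887.6 and 571.0 in ZF, and 488.9, 443.3, 452.9 and 440.3 in ZF-SGLT2i rats. ZL rat 3 and ZF rat 5, the lowest of their groups in C1r and C1s, were also the lowest in this sum, and no treated rat reached the ZF range. Other rats differed in order: treated rat 6 was the highest of its group in C1r and C1s but the lowest in the sum, and the highest sums were in ZL rat 4 and ZF rat 2, where ZL rat 1 and ZF rat 4 were highest in both proteases. Of the 6 fibroblast genes tested, 4 fell in ZF-SGLT2i against ZF, namely the collagen genes Col1a2 (-0.79) and Col3a1 (-1.03), the matrix proteoglycan Dcn (-1.11) and the receptor Pdgfrb (-0.50). Of all genes 1.75% were called lower there. In ZF against ZL, Col1a1 (0.61) and Pdgfrb (0.67) were higher, as were 8.19% of all genes. In ZF-SGLT2i against ZL 3 of 6 genes were lower, as were 15.0% of all genes. The genes most like C1s were C1r (0.97), the adhesion molecule Vcam1 (0.97), the matrix gene Tnc (0.94), Gucy1b3 (0.94) and Dcn (0.93), and those most like Cfi were Mmp12 (0.92), Tmem176b (0.88), Cd53 (0.88), Ephb1 (0.87) and Cp (0.87). These correlations are over 12 rats that share the group differences, depth and scaling, and are given as a description. The part of fibroblast number in the C1r and C1s values was not tested.

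Among hepatocyte markers, albumin RNA was near 0. It had a mean of 0.136 CPM over the 12 rats, and rats at 0 were found for 4 of the 6 hepatocyte genes in the table (Alb, Apoa1, Serpina1 and Fgg). The sum of the 6 genes was 19.4 ± 1.44 CPM in lean, 19.8 ± 4.57 in ZF and 22.5 ± 4.87 in treated rats (SD, n = 4 each), with most reads from the fibrinogen gene Fga at 15.0 CPM. Of the 3 genes tested 1 passed in ZF-SGLT2i against ZF, Serpina1 (1.00, limma adjusted p = 0.015). It was at 0 to 0.769 CPM in ZF and 1.45 to 2.32 CPM in treated rats, on 0 to 23 reads a rat. Only treated rats reached 1 CPM, so the gene passed the filter on low values through that group alone. No conclusion is drawn from its call.

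The rest of the complement pathway was examined through a list of 52 genes arranged by role, of which 39 were in the table and 33, the 9 genes above among them, were tested. In ZF against ZL, 3 of the 33 were higher (C4a, C4b and Clu) and 1 was lower (Mbl1), against 8.19% and 10.6% of all genes. In ZF-SGLT2i against ZF 0 were higher and 2 were lower, C1r and Cd93, against 1.39% and 1.75% of all genes. In ZF-SGLT2i against ZL 2 were higher (C4b and Clu) and 4 were lower (C1r, Serping1, Mbl1 and Cd93), against 12.4% and 15.0% of all genes, so calls against ZL were no more common in the list than among all genes. The median log2 fold change of the list was 0.16 in ZF against ZL, -0.16 in ZF-SGLT2i against ZF and 0.09 in ZF-SGLT2i against ZL, where those of all genes were -0.01, 0.01 and 0.00. Leaving out 1 rat at a time moved these list medians between 0.12 and 0.29, between -0.32 and -0.07, and between -0.05 and 0.11, and the last changed sign in 5 of 22 alternatives.

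**Figure D4:**
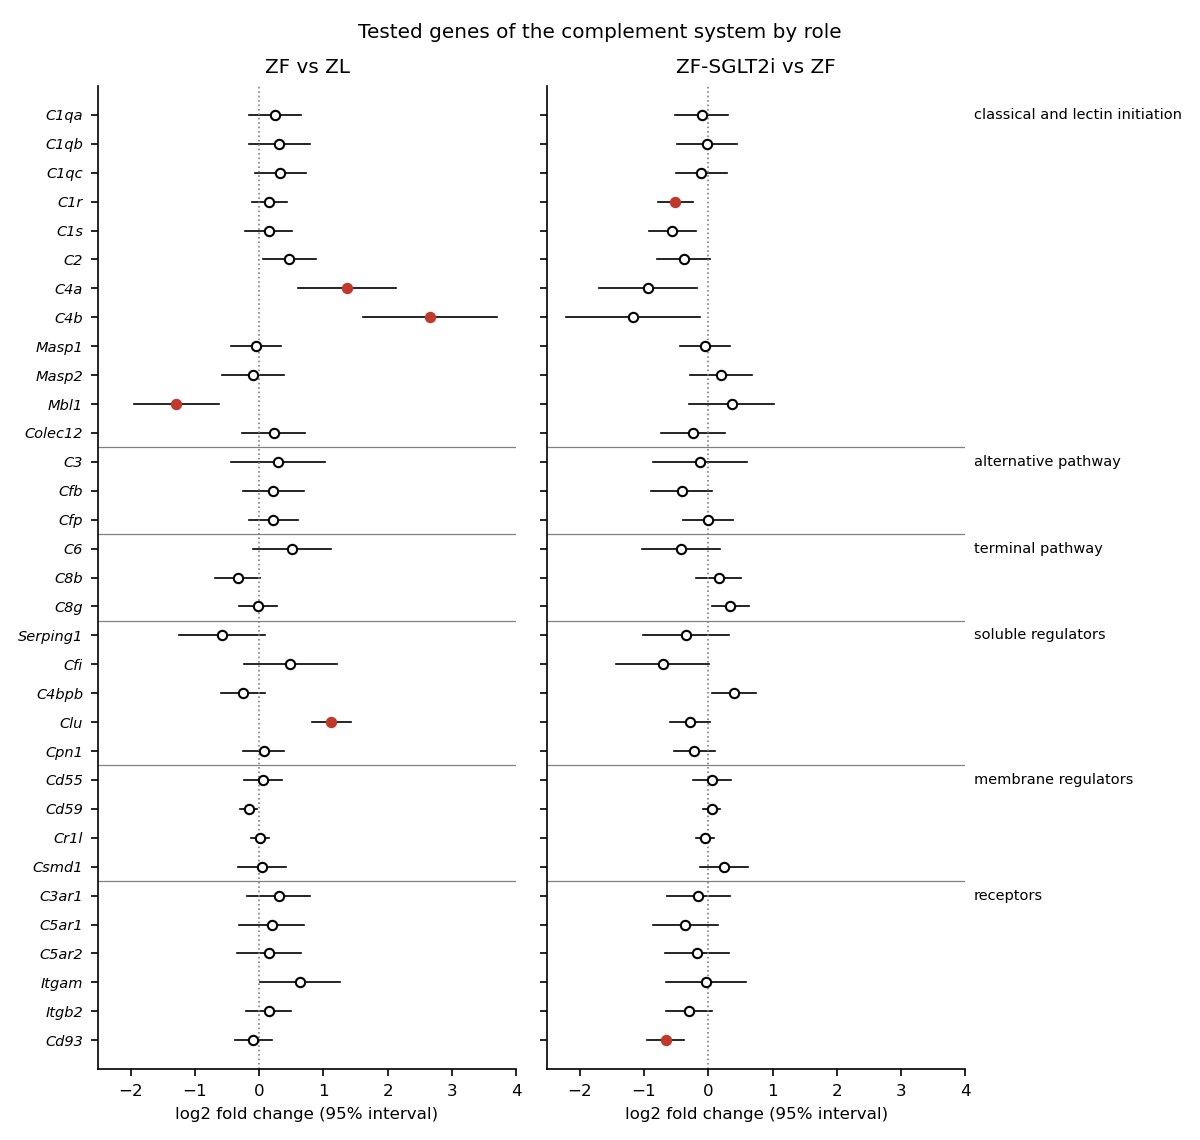
Log2 fold change (points, with 95% limma intervals) of the 33 complement genes tested, grouped by role, with ZF against ZL on the left and ZF-SGLT2i against ZF on the right, 4 rats a group; filled red points passed at an adjusted p under 0.05. C4b has the largest shift in ZF against ZL, at 2.66, followed by C4a at 1.37 and, in the other direction, Mbl1 at -1.29.

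C4, the substrate of C1s, was the pathway's most changed component in obese rats. Its rat genes C4a and C4b are near-identical copies on chromosome 20, and how the counting shared reads between them is uncertain. C4b was 8.70, 7.20, 6.92 and 7.33 CPM in ZL rats (7.54 ± 0.797, SD, n = 4), 93.8, 39.4, 104 and 19.7 CPM in ZF rats (64.3 ± 41.2, SD, n = 4) and 43.7, 38.2, 14.3 and 11.1 CPM in ZF-SGLT2i rats (26.8 ± 16.5, SD, n = 4). Every ZF and every treated rat was above every lean rat, as for 8.67% of genes in ZF against ZL, where 10.3% were lower without overlap and 19.0% did not overlap in all, and ZF and treated rats overlapped. In ZF-SGLT2i against ZL 12.9% of genes were higher without overlap. The log2 fold change of C4b was 2.66 in ZF against ZL (SE 0.49, 95% interval 1.61 to 3.71, limma adjusted p = 0.0031) and 1.49 in ZF-SGLT2i against ZL (SE 0.49, limma adjusted p = 0.036), the latter lost in 6 of 22 alternatives. C4a was 81.6, 56.7, 57.6 and 80.2 CPM in ZL rats, 269, 141, 281 and 92.1 CPM in ZF rats, and 144, 127, 71.2 and 53.6 CPM in ZF-SGLT2i rats. ZF rats were all above ZL rats, and treated rats overlapped both groups. The log2 fold change of C4a in ZF against ZL was 1.37 (SE 0.35, 95% interval 0.61 to 2.13, limma adjusted p = 0.017), and without ZF rat 2 it was 1.17 with an adjusted p of 0.055. In ZF-SGLT2i against ZF the estimates were -0.94 for C4a (95% interval -1.70 to -0.18) and -1.17 for C4b (95% interval -2.22 to -0.12), and neither passed (limma adjusted p = 0.18 and 0.23). Without ZF rat 5 both passed, at -1.25 for C4a (limma adjusted p = 0.043) and -1.63 for C4b (limma adjusted p = 0.046).

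Injured tubule markers were high in the same ZF rats. The 8 genes in the table, with the osteopontin gene Spp1 holding the most reads at 517 CPM and none at 0, summed to 477.4, 430.5, 389.2 and 492.8 CPM in ZL, 1892, 718, 1430 and 582 in ZF, and 1168, 1127, 840.3 and 485 in ZF-SGLT2i rats. Higher calls in ZF against ZL numbered 6 of 8, among them the kidney injury molecule gene Havcr1 (3.01) and Spp1 (1.98), where 8.19% of all genes were called higher. Treated rats had 5 of 8 higher and 1 lower than lean rats, and against nontreated obese rats only Vcam1 was called, lower (-0.67, limma adjusted p = 0.039). Of all genes 12.4% were higher and 15.0% lower in treated than in lean rats, and 1.75% were lower in treated than in nontreated obese rats. ZF rats 2 and 4 were highest in this sum, in C4a, in C4b, in Clu and in Cfi, and treated rats 2 and 3 were highest of their group in the sum, in both C4 genes and in Clu. Spp1 weighs most in the sum, at 1473 CPM in ZF rat 2 and 811 CPM in treated rat 2. The other listed genes were also highest in ZF rats 2 and 4, except Krt18, which was highest in ZF rat 5 (32.5 CPM). Among treated rats Krt18, Cd44 and Sox9 were highest in rat 4, and the rest in rats 2 and 3. The part of tubule injury in the C4 and Clu values was not tested.

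Upstream sequence was printed for C4a and C4b because they rose together, and for C3 as the component they lead to. Promoter windows of RefSeq (GRCr8) were matched for 5 of the 9 genes (C1qa, C1qb, C1r, C3 and Cfi) and for C4a and C4b, and each sequence is the 250 bases before the annotated start, 5′ to 3′ on the gene's strand. The windows are chr20:4010107-4010356 (+) for C4a, chr20:4201729-4201978 (+) for C4b and chr9:2201340-2201589 (-) for C3. Capitals mark the E-box CACGTG in C4a and C4b, and in C3 a match to the C/EBP-like motif TTGNNNAAT.
C4a: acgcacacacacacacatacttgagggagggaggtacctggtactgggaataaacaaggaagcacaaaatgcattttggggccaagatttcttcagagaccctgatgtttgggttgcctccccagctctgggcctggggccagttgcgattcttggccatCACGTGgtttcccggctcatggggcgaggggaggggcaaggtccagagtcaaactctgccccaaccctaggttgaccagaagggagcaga
C4b: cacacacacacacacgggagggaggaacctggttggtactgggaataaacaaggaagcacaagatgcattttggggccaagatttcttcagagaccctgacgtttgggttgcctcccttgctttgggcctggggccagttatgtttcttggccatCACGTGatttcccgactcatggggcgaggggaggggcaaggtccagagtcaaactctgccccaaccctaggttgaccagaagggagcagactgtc
C3: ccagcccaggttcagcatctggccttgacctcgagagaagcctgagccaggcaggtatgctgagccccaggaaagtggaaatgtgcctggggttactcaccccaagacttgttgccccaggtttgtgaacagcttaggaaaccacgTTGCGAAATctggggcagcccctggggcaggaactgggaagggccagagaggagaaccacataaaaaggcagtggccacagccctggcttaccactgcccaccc
In a global alignment with gaps the C4a and C4b windows were identical at 230 of 241 aligned bases (95.4%), and both held the E-box, which was found in 5.59% of the 33469 rat promoter windows of this length. TTGNNNAAT was found in 10.8% of them, with both strands searched, and also matched in Cfi, and the GAS motif TTCNNNGAA (7.67% of windows) matched in C1qa. C1qb and C1r held none of the 3 motifs, and no window held more than 1 of them. A match describes the letters only.

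**Figure D5:**
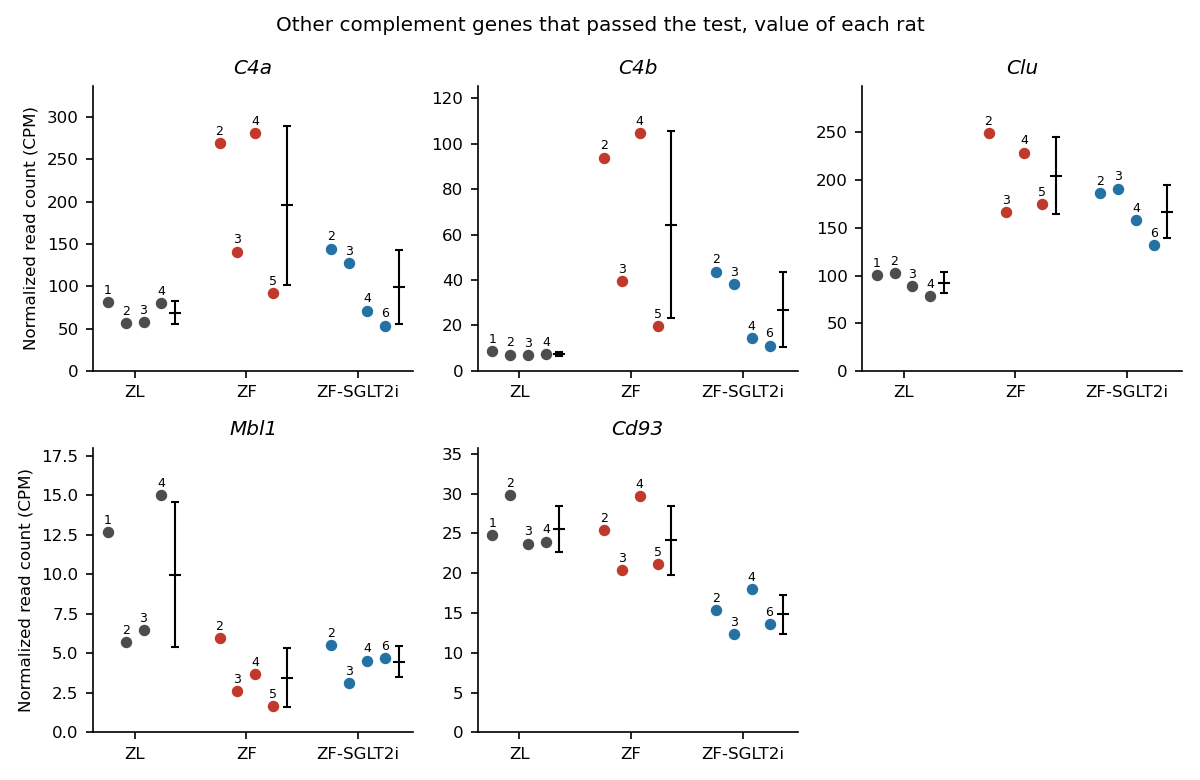
Normalized read count (CPM, each axis from 0) in each rat (points with the rat number) of 5 complement genes outside the first 9 that passed in a comparison, with the mean ± SD of each group of 4 as bars. ZL rats are close together in C4b (6.92 to 8.70 CPM) while ZF rats spread from 19.7 to 104 CPM, and all ZF-SGLT2i rats are below all others in Cd93 (12.3 to 18.0 CPM).

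Among the soluble regulators Clu rose in ZF against ZL. Clu, the chaperone clusterin that blocks the membrane attack complex, was 100.05, 102.8, 88.6 and 78.7 CPM in ZL, 249, 166, 229 and 175 CPM in ZF, and 187, 191, 158 and 132 CPM in ZF-SGLT2i rats. Every ZF and treated rat was above every lean rat, with a log2 fold change of 1.12 in ZF against ZL (SE 0.14, limma adjusted p = 0.0003) and 0.84 in ZF-SGLT2i against ZL (SE 0.14, limma adjusted p = 0.0010). In ZF-SGLT2i against ZF it did not pass (-0.29, 95% interval -0.60 to 0.02, limma adjusted p = 0.33). Of the 5 soluble regulators tested, 1 rose in ZF against ZL and 4 did not pass, Cfi and Serping1 among them.

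Mbl1, the mannose-binding lectin that starts the lectin pathway, was 12.7, 5.72, 6.46 and 15.0 CPM in ZL rats, 5.94, 2.61, 3.67 and 1.64 CPM in ZF rats, and 5.52, 3.13, 4.53 and 4.68 CPM in ZF-SGLT2i rats. It fell by 1.29 on the log2 scale in ZF against ZL (SE 0.31, limma adjusted p = 0.012) although ZF rat 2 overlapped ZL rat 2, and with a replicate block the change was -0.93 and did not pass (limma adjusted p = 0.1001). That block sets ZL rat 1 and ZF rat 5 aside, the lean rat being at 12.7 and the ZF rat at 1.64 CPM. In ZF-SGLT2i against ZL all treated rats were below all lean ones (-0.92, SE 0.31, limma adjusted p = 0.040, lost in 7 of 21 alternatives), as for 15.1% of all genes. The receptor Cd93, once described as a receptor for C1q and expressed in endothelium, was 24.8, 29.8, 23.7 and 23.9 CPM in ZL, 25.4, 20.3, 29.7 and 21.1 CPM in ZF, and 15.3, 12.3, 18.0 and 13.6 CPM in ZF-SGLT2i rats. All treated rats were below all others. Of all genes, 5.63% were lower without overlap in ZF-SGLT2i against ZF and 15.1% in ZF-SGLT2i against ZL. Its log2 fold change in ZF-SGLT2i against ZF was -0.67 (SE 0.13, 95% interval -0.95 to -0.38, limma adjusted p = 0.016; exact permutation p = 0.0286), and 2 of 22 alternatives lost the call, with an adjusted p of up to 0.054. The sum of the 9 endothelial markers was 601 ± 85.0 CPM in lean, 723 ± 42.0 in ZF and 705 ± 95.1 in treated rats (SD, n = 4 each; Kdr held the most reads at 201 CPM, none at 0), and 0 of 9 were called in ZF-SGLT2i against ZF by limma, with 1 at an unadjusted p under 0.05.

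The remaining genes of the pathway gave no call. C2, the partner of C4 in the classical enzyme and a neighbour of Cfb on chromosome 20, was at 6.11 ± 1.67 CPM in lean, 8.80 ± 2.07 in ZF and 6.51 ± 1.46 in treated rats (SD, n = 4 each), with a log2 fold change of 0.47 in ZF against ZL (95% interval 0.06 to 0.88, limma adjusted p = 0.11). None of the 4 membrane regulators tested, which protect host cells, passed in any comparison, and Cr1l, the rodent regulator known as Crry, was at 75.7 ± 2.61, 76.7 ± 6.98 and 73.7 ± 1.65 CPM in ZL, ZF and ZF-SGLT2i rats. Cd59 was at 201 ± 14.5 CPM in ZL and 179 ± 5.68 CPM in ZF rats (-0.16, limma adjusted p = 0.089). The 3 terminal genes tested (C6, C8b and C8g), the alternative pathway gene Cfp, which encodes properdin, and the receptors C3ar1, C5ar1 and C5ar2 for the small complement fragments did not pass either, at mean levels of 0.798 to 5.88 CPM. Fcna, Fcnb, Cfd, Vtn, Cd46 and Susd4 were too low to be tested.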

How the data were processed

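Renal cortex RNA from 12 rats was sequenced as strand-specific paired-end libraries depleted of ribosomal RNA. The submitters' processing notes name Trimmomatic 0.38, RSEM 1.3.0, Bowtie2, edgeR and the build rn6; the annotation is not given in the sources used here. The authors deposited normalized signal values for 13151 genes. Within a rat all values are multiples of 1 constant, the CPM of a single read under TMM scaling, and division by it returned whole reads for 100% of values in each rat (tolerance 1e-06). In 3 of the 12 rats (ZF rat 3, ZF-SGLT2i rats 3 and 4) the constant is close to 0.1, a step that rounding could also leave, although the values carry more decimals than that. No column lacked a sample. No 2 rats of a group were copies (chi-square per gene 5.43 to 50.1).

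Groups were compared by limma (version 3.58.1, R 4.3.3) after a log2(value + 1) transform, with all 12 rats in 1 model, eBayes with trend, two-sided p-values and Benjamini-Hochberg adjustment over the 11633 genes that reached 1 CPM in 4 or more rats. Calls required an adjusted p under 0.05. Fold changes and intervals are on the log2(value + 1) scale, which understates changes of low genes. Exact permutation tests used the 70 assignments of 4 rats against 4, two-sided. The rats of a group are separate animals. As alternatives, 22 in all, the analysis was repeated with a pseudocount of 0.1, without a filter, with a mean of 10 or more, median-ratio and quantile scaling, a fit of only the groups compared, a replicate block, array weights, edgeR 4.0.16 and DESeq2 1.42.0 on the recovered reads (edgeR called 2180, 368 and 3216 genes in ZF against ZL, in treated against nontreated ZF and in treated ZF against ZL, where limma called 2185, 366 and 3184), and without each rat.

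The 9 genes, the complement list and the 10 marker lists (macrophage, lymphocyte, fibroblast, endothelium, podocyte, proximal tubule, thick limb with distal tubule, injured tubule, hepatocyte and blood) were chosen with earlier results of these data known; a gene of the complement list is not reported here and is left out of its counts. Genes named are those of these lists and the 5 genes most like C3, C1qa, C1s and Cfi by Pearson's r. Gene order and promoter windows are from RefSeq tables of GRCr8, another build than rn6, and no position in rn6 is given.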

Additional observations from a re-analysis of the deposited data

Results flagged for a closer look

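Of 99 groups of 4 rats, over the 33 complement genes tested, 6 held a rat far from its group mates by Dixon's criterion, where chance gives about 1 in 20, or 4.95. ZF-SGLT2i rat 2 was the rat in 3 of them. C1qa in ZF-SGLT2i rat 2 was 18.3 CPM, against 9.16 to 10.3 CPM in the other rats of the group. C3 in ZF-SGLT2i rat 2 was 74.6 CPM, against 19.4 to 23.6 CPM. Colec12, a scavenger receptor of the collectin family, was low in this rat at 8.19 CPM, against 13.2 to 14.0 CPM. C1r in ZL rat 3 was 79.1 CPM, against 100.4 to 104 CPM. C8g, a chain of the terminal component C8, was 4.31 CPM in ZF rat 3, against 2.95 to 3.08 CPM. Cr1l in ZL rat 2 was 79.6 CPM, against 74.2 to 74.6 CPM.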

How the results depend on the processing

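Clu and C4b in ZF against ZL kept their direction and their call in all 22 alternatives, and C4a in all but 1. Calls of C1r and Serping1 did not hold that widely. C1r in ZF-SGLT2i against ZF lost its call only when a rat was left out (ZL rat 1, ZF rat 2, 3 or 4, or any treated rat), with estimates from -0.40 to -0.54 there. C1r in ZF-SGLT2i against ZL lost it without a filter, under median-ratio and quantile scaling and without each of 9 rats, and Serping1 under the block and without each of 7 rats. With fewer rats the test has fewer degrees of freedom; the cause of each loss was not tested. Neither rescaling moved the median of all genes by over 0.1.

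The rat numbers do not pair the rats: 2 of the 9 same-number pairs had correlated deviations over 0.1 (range -0.38 to 0.25, other pairs -0.40 to 0.46). Numbers 1, 5 and 6 each occur in only 1 group. A replicate block therefore fits ZL rat 1, ZF rat 5 and ZF-SGLT2i rat 6 exactly. Its estimates rest on rats 2, 3 and 4 of each group, so it also acts as leaving those rats out. With a replicate block, 1 of the 9 genes was higher in ZF against ZL (C1s, 0.43, adjusted p = 0.040), 2 were lower in ZF-SGLT2i against ZF and 1 in ZF-SGLT2i against ZL; the pathway list had 0 genes lower in ZF against ZL (Mbl1 was lost) and 2 lower in ZF-SGLT2i against ZL; and of all genes 412 were higher and 395 lower in ZF against ZL, 114 lower in ZF-SGLT2i against ZF, and 714 higher and 788 lower in ZF-SGLT2i against ZL. Array weights gave 2 pathway genes lower in ZF against ZL. In ZF-SGLT2i against ZF they gave 2 of the 9 genes lower, 311 of all genes higher and 378 lower; DESeq2 gave 2, 274 and 367 there. A mean of at least 10 left 0 pathway genes lower in ZF against ZL, since Mbl1 was no longer tested. No filter, median-ratio and quantile scaling each left 1 of the 9 genes lower in ZF-SGLT2i against ZL.

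Leaving out each rat in turn, the 9 genes gave 0 to 1 higher in ZF against ZL (1, Cfb, without ZF rat 5), 0 to 4 lower in ZF-SGLT2i against ZF and 0 to 3 lower in ZF-SGLT2i against ZL. The pathway list gave 2 to 4 higher and 1 to 2 lower in ZF against ZL, 0 to 7 lower in ZF-SGLT2i against ZF (7 without ZF rat 5), and 1 to 2 higher and 1 to 5 lower in ZF-SGLT2i against ZL. All genes gave 628 to 1057 higher and 744 to 1396 lower in ZF against ZL, 89 to 256 higher and 82 to 314 lower in ZF-SGLT2i against ZF, and 1020 to 1507 higher and 1221 to 1795 lower in ZF-SGLT2i against ZL.

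Estimates that changed sign passed in no setting. C1qb in ZF-SGLT2i against ZF was 0.00034 with edgeR and 0.0046 with DESeq2, and C3 was 0.054 with edgeR and 0.055 with DESeq2. Leaving out each rat in turn, C1qb ranged from -0.23 to 0.10, C1qc from -0.28 to 0.054 and C3 from -0.57 to 0.063 in that comparison, and in ZF-SGLT2i against ZL C1qa ranged from -0.073 to 0.24 and C3 from -0.27 to 0.36; the lowest value was in each case the one without treated rat 2.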

Other observations

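Other cell type lists were measured in the same rats. Of all genes, 8.19% were called higher and 10.6% lower in ZF against ZL. The shares were 1.39% and 1.75% in ZF-SGLT2i against ZF, and 12.4% and 15.0% in ZF-SGLT2i against ZL. Proximal tubule markers, of which Lrp2 held the most reads and none was at 0, summed to 22794 ± 1323 CPM in lean, 18002 ± 2080 in ZF and 16158 ± 1835 in treated rats (SD, n = 4 each, here and below in the same order); in ZF against ZL 2 of 9 were lower, Aqp1 and Miox, and 1 was higher, Slc22a6. Treated rats were lower in Slc22a6 than nontreated obese rats (-0.59, limma adjusted p = 0.0084), with no other marker of the list called, and against lean rats 3 of 9 were lower, Lrp2 (-0.75), Slc34a1 (-0.39) and Miox (-0.68). Podocyte markers summed to 1222 ± 162, 1598 ± 163 and 1644 ± 186 CPM, and 3 of 5 (Nphs1, Podxl and Synpo) were higher both in ZF and in ZF-SGLT2i rats than in ZL. Markers of the thick limb and distal tubule summed to 7216 ± 419, 7466 ± 567 and 7279 ± 432 CPM; limma called 0 of 5 in ZF against ZL, with 1 at an unadjusted p under 0.05, and 0 of 5 in ZF-SGLT2i against ZF, with 3 at an unadjusted p under 0.05. Against lean rats, treated rats were higher in Slc12a3, the thiazide-sensitive cotransporter gene (0.79, limma adjusted p = 0.0037), and lower in Umod, which encodes uromodulin (-0.60, limma adjusted p = 0.035). Lymphocyte markers summed to 21.2 ± 3.90, 27.4 ± 4.34 and 21.3 ± 8.10 CPM, with most reads from Cd4 at 19.9 CPM, which macrophages also express in rats, and Cd3d and Cd3g held rats at 0. Of the 3 lymphocyte genes tested, limma called 0 in ZF against ZL, with 0 at an unadjusted p under 0.05, 0 in ZF-SGLT2i against ZF, with 2 at an unadjusted p under 0.05, and 1 lower in treated than in lean rats (Cd2, -0.67, limma adjusted p = 0.018). Blood markers, with most reads from Hba2 at 8.72 CPM, summed to 4.78 ± 1.07, 17.6 ± 8.62 and 27.7 ± 20.5 CPM, and Hba2 was higher in ZF than in ZL (1.44, limma adjusted p = 0.0497). The kidneys had been perfused with saline.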
